A study of Mus musculus with 48 samples.

Results

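The 6 libraries described here, of 48 in the series, were made from WT mouse vAbl pro-B cells with a primer that reads out from the signal end of Jκ1 (SE bait). They were chosen by their labels: 3 libraries of cells given STI-571 with L82-G17 and 3 of cells given STI-571 with DMSO. STI-571 was used at 3 µM for 96 h in both groups, and L82-G17 at 25 µM was added on the day STI-571 was given. In the same 48 libraries, 3 cycling WT libraries that received no STI-571 and 3 STI-571 libraries with L67 at 5 µM were made from the same bait, and both are given beside the comparison for reference only, since the inhibitors' doses differ. The last comparison also uses WT libraries read from the Jκ1 coding end and Ku70-/- libraries from the SE bait. Both sets were given STI-571 with L82-G17 or DMSO at the same doses, with 3 libraries in each group. The WT line is 1 clone, and the labels do not say whether the 3 libraries of a group came from separate cultures, so every p-value below measures the spread between libraries, which may be technical.

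vAbl pro-B cells are early B cells held in cycle by the v-Abl kinase. STI-571 blocks that kinase, arrests the cells in G1 and turns on the RAG recombinase, which cuts the Igκ light chain locus between each Vκ or Jκ coding segment and its recombination signal sequence (RSS). An RSS is a heptamer and a nonamer separated by a spacer of 12 or 23 bp, and RAG pairs one spacer class with the other. The cut leaves hairpinned coding ends, which are opened and trimmed before they are joined, and blunt signal ends, which are usually joined to each other without loss by the classical end joining pathway with DNA ligase IV. L82-G17 is known as an inhibitor of DNA ligase I, and L67 as an inhibitor of ligases I and III; the labels give only their names and doses. Signal joints of Vκ genes in the same orientation as Jκ1 leave the chromosome as excision circles (deletional sites), whereas those of genes in the opposite orientation stay in the chromosome (inversional sites).

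The sequences at which the joints formed are shown first because precision is counted from them. The Jκ1 signal end, which every read of these libraries starts from, and the signal ends of the leading Vκ sites and of sites that rose or fell are written from the break outward, 5′ to 3′, with the heptamer and the 9 bases at the nonamer position in capitals and the spacer in lower case. Coordinates are those of mm9 (NCBIM37).
Jκ1, chr6:70672517-70672555, minus strand: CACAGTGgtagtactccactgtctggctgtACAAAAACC
Igkv1-135, chr6:67560503-67560530, plus strand: CACAGTGattcagacccgaACAAAAACT
Igkv1-88, chr6:68812231-68812258, minus strand: CACAGTGatttataccccaACAAAAACT
Igkv6-17, chr6:70321988-70322015, plus strand: CACAGTGcttcagcctcctACACAAACC
Igkv8-16, chr6:70336638-70336665, minus strand: CACAGTGcttcagcctcctACACAAACC
Igkv3-10, chr6:70523225-70523252, plus strand: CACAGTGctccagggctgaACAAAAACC
Igkv3-1, chr6:70654172-70654199, plus strand: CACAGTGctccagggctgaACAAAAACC
Igkv4-81, chr6:68940724-68940751, minus strand: CACAGTGatacaggctggaACAAAAACC
Igkv4-58, chr6:69450220-69450247, minus strand: CACAGTGctacatactgaaACAAAAACA
Igkv4-72, chr6:69176820-69176847, minus strand: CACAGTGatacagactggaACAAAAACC
The RSS of Igkv6-17 is identical to that of Igkv8-16, and that of Igkv3-10 to that of Igkv3-1, and in both pairs the usage of 1 member passed the test below and that of the other did not. Igkv4-72 shares its RSS with the unnamed site at 69060897, both of which rose, and Igkv1-110 shares its RSS with Igkv1-117, both with negative changes of which only the first passed. An exact joint of the Jκ1 signal end with Igkv1-135, the most used site, reads as follows over 20 bp on either side, with the abutted heptamers in capitals.
Exact joint: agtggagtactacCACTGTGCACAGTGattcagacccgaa

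Junctions were assigned to 138 Vκ break sites on chromosome 6 that lay 18.4 to 3166 kb from Jκ1, 63 deletional and 75 inversional. The heptamer at 111 of them was CACAGTG, and all open with CAC because the site rule required it. An annotated Igkv gene ended at 96 of the sites, and 42 had none. All 9 STI-571 libraries lay far above the cycling libraries in yield, which bears on the STI-571 label only, and the L82-G17 and DMSO labels could not be checked from the junctions.

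L82-G17 libraries yielded fewer V-J joints than DMSO libraries. V-J efficiency (V-J Eff) counts junctions that fall no more than 200 bp from such a site, per 100 of the 500000 read pairs each library started from. They made up 67.6%, 64.9% and 64.9% of read pairs in the DMSO libraries and 27.4%, 24.3% and 24.9% with L82-G17. The groups did not overlap. The means were 65.8% ± 1.53 (SD, n = 3) and 25.5% ± 1.62, a log2 ratio of -1.37 (exact two-sided permutation test, p = 0.1, the smallest that 3 libraries against 3 allow). V-J Eff was 57.0% to 63.6% in the L67 libraries and 3.88% to 4.25% in the cycling libraries. Since the reads come from bulk DNA, fewer recombined cells and fewer joints per cell cannot be told apart.

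**Figure D1:**
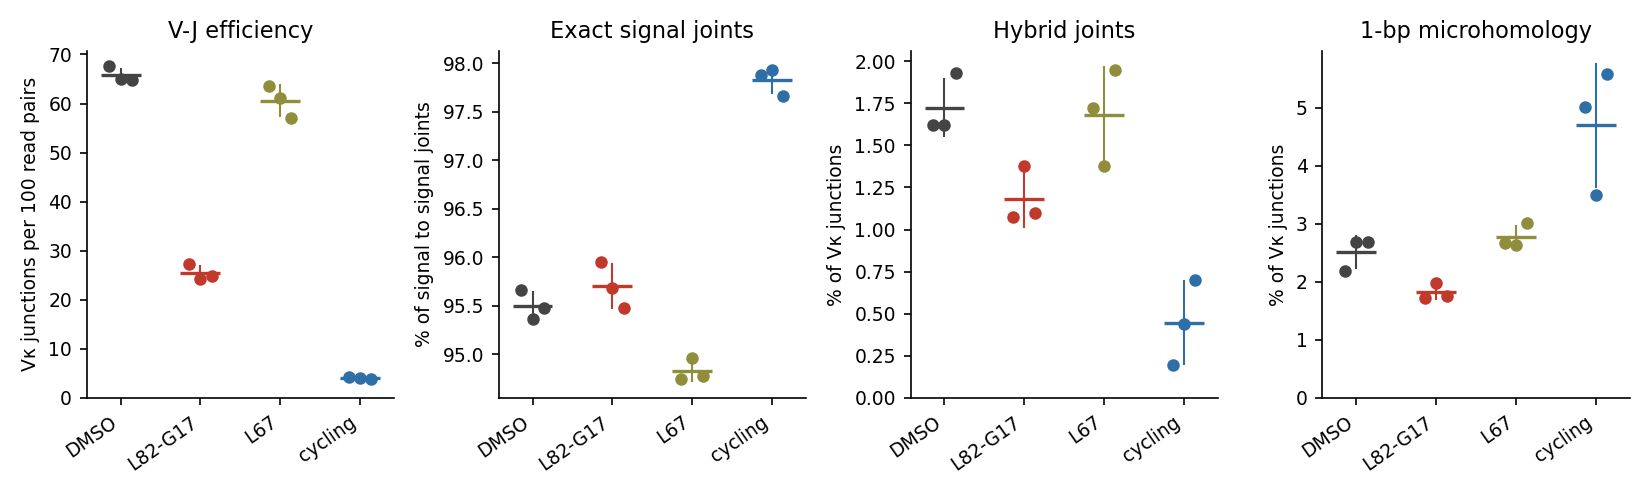
Measures in each WT library from the SE bait: V-J Eff (Vκ junctions per 100 read pairs), exact signal joints (percent of signal to signal joints, on an axis that does not start at 0), hybrid joints and junctions with 1 bp of microhomology (both percent of Vκ junctions). Points are libraries, horizontal bars the means and vertical bars the SD of 3 libraries; V-J Eff, hybrid joints and 1-bp microhomology lay lower in all L82-G17 libraries than in any DMSO library, while exact signal joints overlapped.

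The Vκ share of all junctions was also lower. It was 95.8%, 95.7% and 95.6% in the DMSO libraries against 94.0%, 93.2% and 93.1% with L82-G17, which do not overlap (exact permutation p = 0.1). Libraries held 339201 to 352630 junctions with DMSO and 130487 to 145581 with L82-G17. Because the lists were not freed of duplicates and most signal joints of a site have the same structure, distinct Vκ junctions numbered only 1713 to 2307 and 1025 to 1198, and copies of a molecule cannot be told from repeated identical joints.

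The signal joints that did form with L82-G17 overlapped those of the controls in precision. A joint was counted as exact where both signal ends kept every base and nothing was inserted. Exact joints made up 95.7%, 95.4% and 95.5% of signal to signal joints with DMSO and 96.0%, 95.7% and 95.5% with L82-G17. The groups overlapped, with a difference of 0.205 percentage points (exact permutation p = 0.2), and without DMSO replicate 1 or L82-G17 replicate 3 the overlap disappeared with L82-G17 higher, by 0.285 and 0.318 points. Exact joints were also higher without overlap as a share of all Vκ junctions (by 0.720 points) and over distinct junctions (by 4.20 points), whereas with the cycling level subtracted the difference was -0.0500 points with overlap. The share of all Vκ junctions also counts joints to coding ends. The share of distinct junctions counts identical exact joints once, so it depends on how many distinct imprecise joints a library holds. Neither measures the precision of signal joints alone. The share of joints within 10 bp of the break, among those within 100 bp, was 99.6% to 99.8% with DMSO and 99.7% to 99.8% with L82-G17 (exact permutation p = 0.7). Within 5 bp it was 99.1% ± 0.0264 against 99.3% ± 0.0339, which did not overlap and again lay higher with L82-G17 (exact permutation p = 0.1).

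Imprecise signal joints were mainly losses of 1 to 5 bp and joints with an insertion. Losses of 1 to 5 bp without insertion took 1.73% to 1.92% of signal joints with DMSO and 1.92% to 2.14% with L82-G17. Losses of 6 to 20 bp took 0.472% to 0.616% with DMSO, and 0.410% to 0.470% with L82-G17. Those over 20 bp were rare in both, at 0.0391% to 0.186% and 0.0754% to 0.105%. The Jκ1 end itself was intact in 96.9% to 97.1% of signal joints with DMSO and 96.8% to 97.3% with L82-G17, and the most common trim there was of 1 or 2 bp. Joints with an insertion and a changed end took 1.46% to 1.73% with DMSO and 1.15% to 1.49% with L82-G17, and those with an insertion between intact ends took 0.188% to 0.418% and 0.163% to 0.258%. Joints whose prey began before the Vκ break took 0.131%, 0.126% and 0.159% with DMSO and 0.174%, 0.240% and 0.198% with L82-G17. Of these classes, 2 did not overlap between the groups: losses of 6 to 20 bp were lower with L82-G17, by a margin of less than the spread within either group, and prey that began before the break was higher.

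By site, precision was measured where every library had at least 200 signal joints, which held for 81 sites. Exact joints were more frequent on average with L82-G17 at 57 sites and less frequent at 24. Only 6 sites (7.41%) lay higher in all L82-G17 libraries than in any DMSO library and 2 sites (2.47%) lay lower. With only 20 arrangements of 3 libraries against 3, some sites separate in either direction without any effect. The sites named next are therefore given as a description. The 2 lower sites were among the more used: Igkv16-104 went from 92.6% ± 0.535 to 89.4% ± 2.69 and Igkv12-46 from 95.7% ± 0.244 to 93.6% ± 1.43. Among the higher sites, Igkv4-56 went from 93.3% ± 4.83 to 97.5% ± 0.833 and Igkv3-7 from 94.9% ± 3.09 to 97.5% ± 0.645 (SD, n = 3).

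Hybrid joints were less frequent with L82-G17. A hybrid joint links the Jκ1 signal end to a Vκ coding end, so it joins ends that are normally kept apart. Their share of Vκ junctions was 1.62%, 1.62% and 1.93% with DMSO and 1.07%, 1.38% and 1.10% with L82-G17, without overlap (difference of -0.542 percentage points, exact permutation p = 0.1). Per 500000 read pairs there were 5479, 5272 and 6256 hybrid joints with DMSO and 1468, 1678 and 1363 with L82-G17, a log2 ratio of -1.92, which is larger than the -1.37 of all Vκ joints. Hybrid joints were told by prey strand alone, and 8.61% to 11.7% with DMSO and 12.55% to 18.1% with L82-G17 began on the signal side. Told by the side of the break instead, the share was 3.23%, 3.73% and 3.87% with DMSO and 2.39%, 2.94% and 2.62% with L82-G17. Hybrid joints spread over 71 to 97 sites with DMSO and 50 to 68 with L82-G17, and the leading site held 5.94% to 19.7% of them in any of the 6 libraries. Their structure differed from that of signal joints in both groups: direct joints were only 27.03% to 28.4% with DMSO and 22.2% to 26.9% with L82-G17, and the Jκ1 signal end was intact in 11.7% to 24.7% and 21.5% to 26.9%. The direct share of hybrid joints did not overlap and lay lower with L82-G17, opposite to that of all Vκ junctions given next. Microhomology over 1 bp was found in 18.5% to 22.4% of hybrid joints with DMSO and 22.2% to 31.5% with L82-G17, which overlap. The hybrid share was 1.38% to 1.95% in the L67 libraries and 0.198% to 0.702% in the cycling libraries.

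Direct joints took a slightly larger share with L82-G17, by 1.12 percentage points, while the share with a 1-bp overlap changed by -0.696 points. Most 1-bp overlaps of signal joints came from 2 sites, as given below, so the direct share also depends on the usage of those sites. Over Vκ junctions with an overlap or gap of at most 20 bp, direct joints made up 95.2%, 94.3% and 94.7% with DMSO and 96.2%, 95.5% and 95.8% with L82-G17. These groups did not overlap (exact permutation p = 0.1). Insertions took 1.92%, 2.28% and 2.04% with DMSO and 1.47%, 1.77% and 1.82% with L82-G17, also without overlap (exact permutation p = 0.1), but over signal to signal joints alone the groups overlapped. Microhomology over 1 bp did not separate them, at 0.737%, 0.732% and 0.625% against 0.649%, 0.756% and 0.597% (exact permutation p = 0.7).

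Overlaps of 1 bp fell from 2.52% ± 0.290 to 1.82% ± 0.141 (SD, n = 3; no overlap, exact permutation p = 0.1). Of signal joints with a 1-bp overlap, 78.4% to 86.8% with DMSO and 78.6% to 86.1% with L82-G17 were exact, in that the base shared with the Jκ1 end was the Vκ base just before the heptamer. Such a G lies before the heptamer at only 2 of the 138 sites, and 78.8% to 86.7% and 79.0% to 86.2% of the 1-bp overlaps came from those sites. The larger of them was Igkv8-27, whose usage was 11.1, 14.7 and 13.3 per 1000 Vκ junctions with DMSO and 8.84, 9.61 and 7.73 with L82-G17 (log2 change of -0.57 ± 0.161, SE, adjusted p = 0.0764, limma). The 1-bp overlaps that were not exact made up 0.268% to 0.395% of signal joints with DMSO and 0.189% to 0.307% with L82-G17, which overlap.

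By length, most insertions and overlaps were short and most lengths did not separate the groups. Of the 35 lengths from 1 to 20 bp seen in either group, 4 (11.4%) lay lower in every L82-G17 library and 0 lay higher. Besides 1 bp of microhomology these were insertions of 4, 8 and 19 bp. Insertions of 4 bp were the only common ones among them, at 0.107% ± 0.00504 with DMSO and 0.0505% ± 0.00914 with L82-G17. Insertions of 8 bp rested on 84 and 8 junctions, and those of 19 bp on 21 and 3. Insertions of 1 bp were 1.24% ± 0.159 against 0.928% ± 0.154, with overlap between the groups. Of the bases in 1-bp insertions, A and T together were far more common than G and C: G and C made up 21.3%, 11.7% and 20.5% with DMSO and 14.5%, 20.6% and 9.10% with L82-G17. In 2-bp insertions G and C rose to 50.4% to 58.6% of bases with DMSO and 58.8% to 64.3% with L82-G17. These do not overlap, by a margin below the spread within either group, whereas the 1-bp insertions overlapped.

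**Figure D2:**
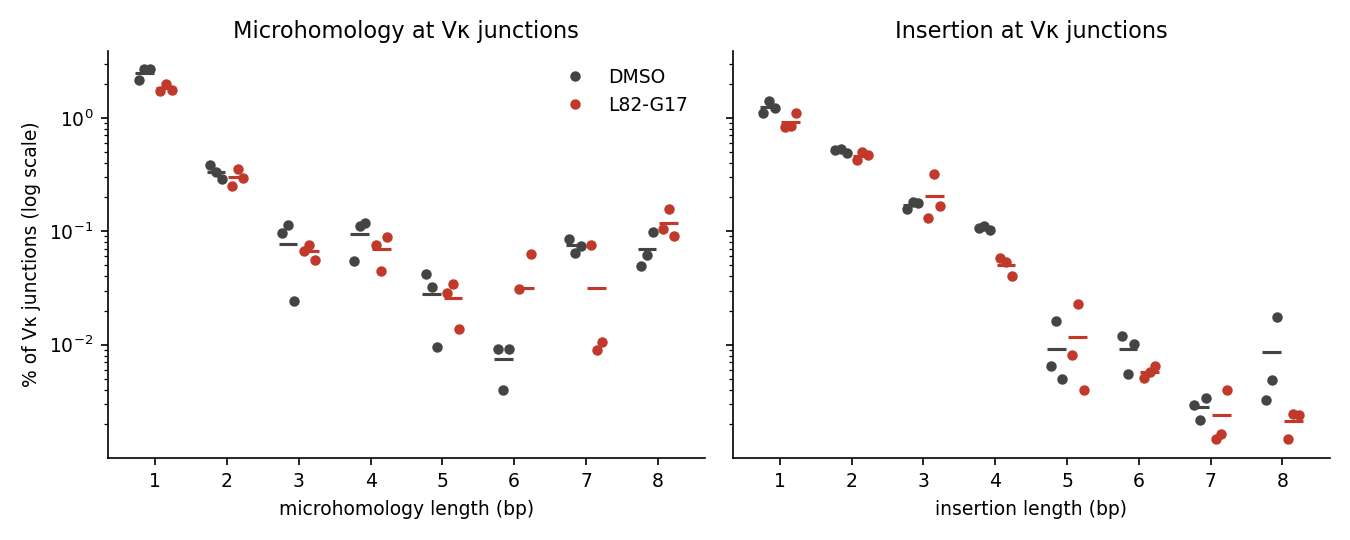
Share of Vκ junctions (percent, log scale) with microhomology (left) or an insertion (right) of 1 to 8 bp. Points are libraries and bars the mean of 3 libraries; libraries at 0 are not drawn. The groups separate at 1 bp of microhomology and at insertions of 4 and 8 bp, while the other lengths drawn overlap.

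Vκ usage was described as junctions at a site per 1000 Vκ junctions of the library. Whether joints already present in cycling cells enter this measure was not tested, and the cycling values are set beside it further on. Of 113 sites with a mean of at least 50 junctions, 11 (9.73%) changed at an adjusted p under 0.05 (limma): 4 rose (3.54%) and 7 fell (6.19%). The balance depended on the fit, since with all 9 STI-571 libraries in 1 limma fit 13 rose and 11 fell. At the 11 called sites the libraries of the treatments did not overlap, as was so for 45 of the 113 tested sites (24 higher and 21 lower). The calls rest on all 6 libraries, since leaving out any one of them left at most 1 called site. That all 11 kept their direction then follows from the lack of overlap and adds no support. Counted per read pair instead, nearly every site fell: the ratio of L82-G17 to DMSO junctions had a median of 0.409, and only 2 sparsely used sites without an annotated gene were above 1 on average.

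The 4 sites that rose were all inversional, as were 65 of the 113 tested sites, and 3 were Igkv4 genes, a family with 22 tested sites. Igkv4-81 rose from 15.3, 18.4 and 15.8 per 1000 Vκ junctions with DMSO to 26.5, 28.8 and 29.6 with L82-G17 (log2 change of 0.78 ± 0.130, SE, adjusted p = 0.0268). Igkv4-58 rose from 16.9, 15.8 and 16.3 to 27.9, 25.5 and 25.6 (0.69 ± 0.111, adjusted p = 0.0268). Igkv4-72 rose from 3.01, 3.83 and 2.88 to 5.74, 6.39 and 5.46 (0.87 ± 0.158, adjusted p = 0.0268). In each of these genes the lowest L82-G17 library lay above the highest DMSO library by more than the range within either group. The other site, at position 69060897 with no annotated gene, rose by 0.59 ± 0.118 (adjusted p = 0.0349) and differs from another site at only 2 of the first 100 bases after the break, as does Igkv4-72, so that reads short enough may be shared.

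Of the 7 sites that fell, 5 were deletional, against 48 of the 113 tested sites. Whether orientation differed between called and other sites was not tested. Igkv1-88, an inversional gene and one of the 8 most used sites, fell from 46.9, 45.1 and 38.1 per 1000 to 26.6, 26.8 and 26.4 (log2 change of -0.70 ± 0.128, SE, adjusted p = 0.0268). Igkv6-17 fell from 34.0, 35.02 and 33.1 to 24.7, 20.1 and 21.4 (-0.63 ± 0.127, adjusted p = 0.0349). Igkv1-110 fell from 21.9, 18.9 and 22.2 to 15.04, 12.9 and 12.5 (-0.64 ± 0.138, adjusted p = 0.0386). In these 3 genes every L82-G17 library lay below every DMSO library. Igkv1-133 (-0.81 ± 0.138) and Igkv6-25 (-0.80 ± 0.172) fell by similar amounts. Igkv9-124 fell most, by 2.30 on the log2 scale (SE 0.388), from 3.33 ± 0.292 to 0.743 ± 0.439 per 1000 (SD, n = 3), but 2 of its first 100 signal-side bases separate it from another site. Igkv3-1, the site nearest to Jκ1 at 18.4 kb, fell from 7.93, 6.59 and 7.32 to 4.42, 4.44 and 3.84 (-0.78 ± 0.134, adjusted p = 0.0268), and its first 100 bases past the break are the same as those of another site. Prey alignments over 100 bp made up 80.6% to 86.2% of Vκ junctions of all sites in the 6 libraries. No such value was taken for Igkv9-124 or Igkv3-1 alone, so whether their reads are shared with the similar sites was not tested.

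Among the 8 sites most used with DMSO, 6 did not pass the threshold. Igkv1-135, the leading site, stood at 56.4, 52.0 and 63.7 per 1000 with DMSO and 43.9, 50.2 and 44.7 with L82-G17 (log2 change of -0.31 ± 0.134, adjusted p = 0.179). Igkv16-104 changed by 0.17 ± 0.123, Igkv12-44 by 0.40 ± 0.119, Igkv3-10 by 0.31 ± 0.128, Igkv1-117 by -0.36 ± 0.139 and Igkv8-16 by -0.01 ± 0.127. The 95% interval of Igkv8-16, from -0.32 to 0.30, met that of Igkv6-17, from -0.94 to -0.32, only at its edge although both carry the same RSS. For the pair Igkv3-10 and Igkv3-1 the intervals were -0.01 to 0.62 and -1.11 to -0.45. The intervals of the other pairs with 1 RSS overlapped: 0.48 to 1.25 for Igkv4-72 and 0.30 to 0.88 for the unnamed site at 69060897, and -0.98 to -0.30 for Igkv1-110 and -0.71 to -0.02 for Igkv1-117. The difference between the members of a pair was not tested. Near Jκ1, Igkv3-2 changed by -0.29 ± 0.197 and Igkv3-3 by -0.39 ± 0.274, and at the far end Igkv2-137 changed by -1.09 ± 1.82 and the unnamed site at 67518928 by 2.19 ± 0.719, none of which passed.

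**Figure D3:**
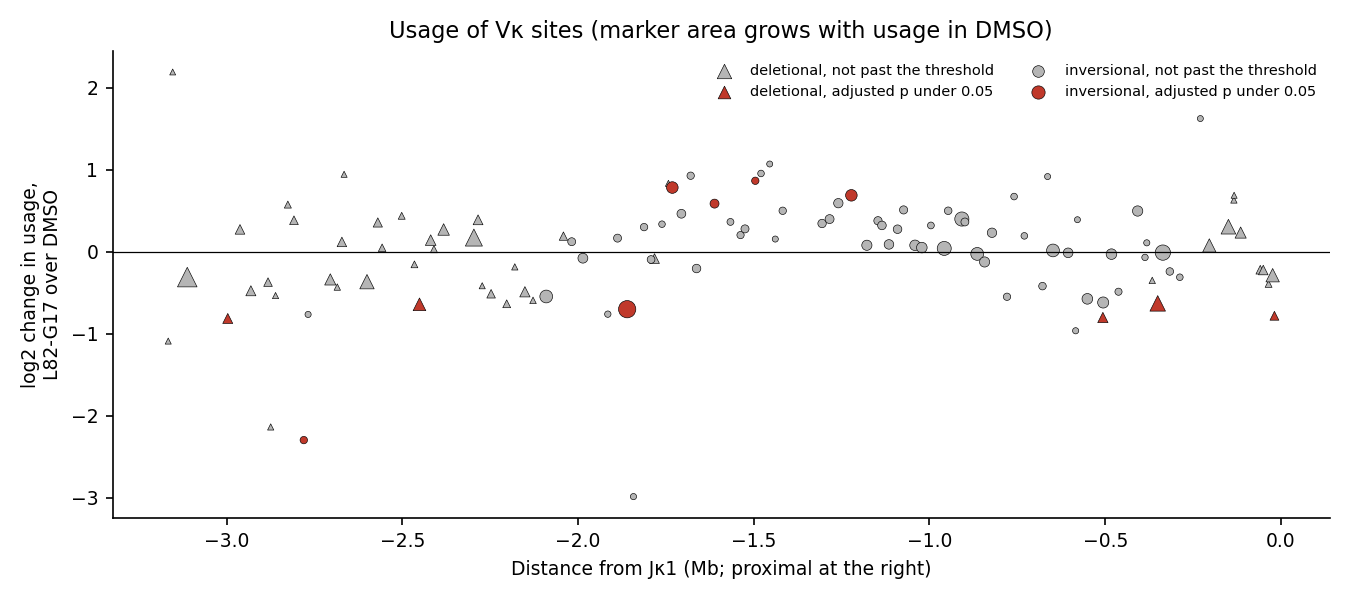
Change in usage (log2, L82-G17 over DMSO, from limma) of the 113 tested Vκ sites against their distance from Jκ1 in Mb. Triangles are deletional and circles inversional sites, red marks an adjusted p under 0.05, and marker area grows with usage in DMSO. The 4 red sites above 0 lie between 1222 and 1732 kb from Jκ1, and the 7 below 0 lie at 18.4 to 507 kb, at 1860 kb and at 2451 to 2997 kb.

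Grouped by family, Igkv4 shifted opposite to Igkv1 and Igkv6. Igkv4 sites held 13.5% ± 0.258 of Vκ junctions with DMSO and 18.1% ± 0.429 with L82-G17 (SD, n = 3): of 22 tested members 3 rose, 0 fell and 20 had a positive log2 change, with a median of 0.36 against 0.08 over all tested sites, where 63 of 113 were positive. Igkv1 sites held 18.6% ± 0.396 and 13.9% ± 0.286: of 8 tested members 3 fell, and the median was -0.35. Igkv6 sites held 7.66% ± 0.251 and 5.80% ± 0.186: 2 of 8 fell and the median was -0.40. The Igkv5 genes, with all 5 log2 changes positive but none called, went from 2.09% ± 0.154 to 2.68% ± 0.112. Igkv3 genes, which include the sites next to Jκ1, held 11.9% ± 0.494 and 12.02% ± 0.676. Sites with the consensus heptamer held 91.2% and 91.6% of Vκ junctions, and those with no annotated gene 10.6% and 11.6%. In the L67 libraries Igkv4, Igkv1 and Igkv6 sites held 15.4%, 16.9% and 6.72% on average, each between the means with DMSO and with L82-G17.

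Usage also differed by orientation and position. Each site counts in its family, its orientation and its segment, so these groupings describe the same junctions and are not separate results. Deletional sites held 49.4%, 48.4% and 49.3% of Vκ junctions with DMSO and 45.6%, 44.7% and 45.8% with L82-G17, without overlap (exact permutation p = 0.1). When the Vκ region was cut into 4 segments of equal length, the most distal held 23.4% ± 0.539 and 20.8% ± 0.359, and the mid-distal 22.997% ± 0.551 and 22.957% ± 0.765. The mid-proximal, which holds 30 inversional sites and no other, held 23.3% ± 0.512 and 28.2% ± 0.619, and the most proximal 30.3% ± 0.885 and 28.1% ± 0.488 (SD, n = 3). The mid-distal segment overlapped between groups (exact permutation p = 0.9), and the other segments did not (exact permutation p = 0.1 each). Over distinct junctions the deletional share overlapped between the groups (difference of -0.618 points), and the difference of the most distal segment turned to 0.198 points. Inversional sites did not all move together: those of the mid-distal segment held 13.6% with DMSO and 13.4% with L82-G17, and those of the most proximal 13.7% and 13.02%, with overlap in both. In the mid-proximal segment 26 of 28 tested sites had a positive log2 change, with a median of 0.33. In the L67 libraries deletional sites held 45.97% to 47.6%, the mid-proximal segment 24.9% to 25.2% and the most proximal 27.4% to 29.04%. All lay apart from DMSO in the same direction as L82-G17, so these shifts were not particular to L82-G17. The most distal segment held 21.9% to 23.2% with L67 and overlapped DMSO, and the mid-distal held 23.8% to 24.6% and lay above DMSO.

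The cycling libraries lay in the same direction for several of these measures. Deletional sites held only 13.8% of their Vκ junctions, the mid-proximal segment 43.8%, Igkv4 sites 30.9% and Igkv1 sites 3.72%, while the Igkv6 share of 11.3% and the 34.0% of the most proximal segment lay above both arrested groups. Cycling libraries had 20442 Vκ junctions on average per 500000 read pairs, against 127613 with L82-G17 and 328983 with DMSO. When that cycling level was subtracted from each library, a calculation added after the data were seen, deletional sites held 51.4% ± 0.534 with DMSO and 51.4% ± 0.603 with L82-G17, and the groups overlapped (exact permutation p = 1). The most distal segment overlapped as well, at 24.5% ± 0.587 and 23.6% ± 0.526 (exact permutation p = 0.2). The mid-proximal segment remained apart at 21.9% ± 0.547 and 25.2% ± 0.937, and so did the most proximal at 30.1% ± 0.943 and 26.9% ± 0.628 (exact permutation p = 0.1 each). Igkv4 sites then held 12.3% ± 0.287 and 15.6% ± 0.686, Igkv1 sites 19.6% ± 0.401 and 15.8% ± 0.454, and Igkv6 sites 7.42% ± 0.270 and 4.75% ± 0.297, each without overlap. The lack of overlap is not particular to these families, since Igkv2, Igkv5, Igkv8, Igkv11, Igkv15, Igkv16 and Igkv17 did not overlap after subtraction either. With the subtraction, 0 of 111 sites passed the adjusted threshold in limma, 32 had an unadjusted p under 0.05, and all 11 sites called above kept their direction. V-J Eff after subtraction was 61.7% ± 1.53 and 21.4% ± 1.62. The subtraction takes every arrested library to hold cycling joints at the full cycling level, which was not tested. Joints to the intronic RSS, described below, averaged 888 with DMSO, 2039 with L82-G17 and 2404 in cycling libraries. A DMSO library can thus hold fewer than the cycling level, and the subtracted values do not show where the shifts come from.

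**Figure D4:**
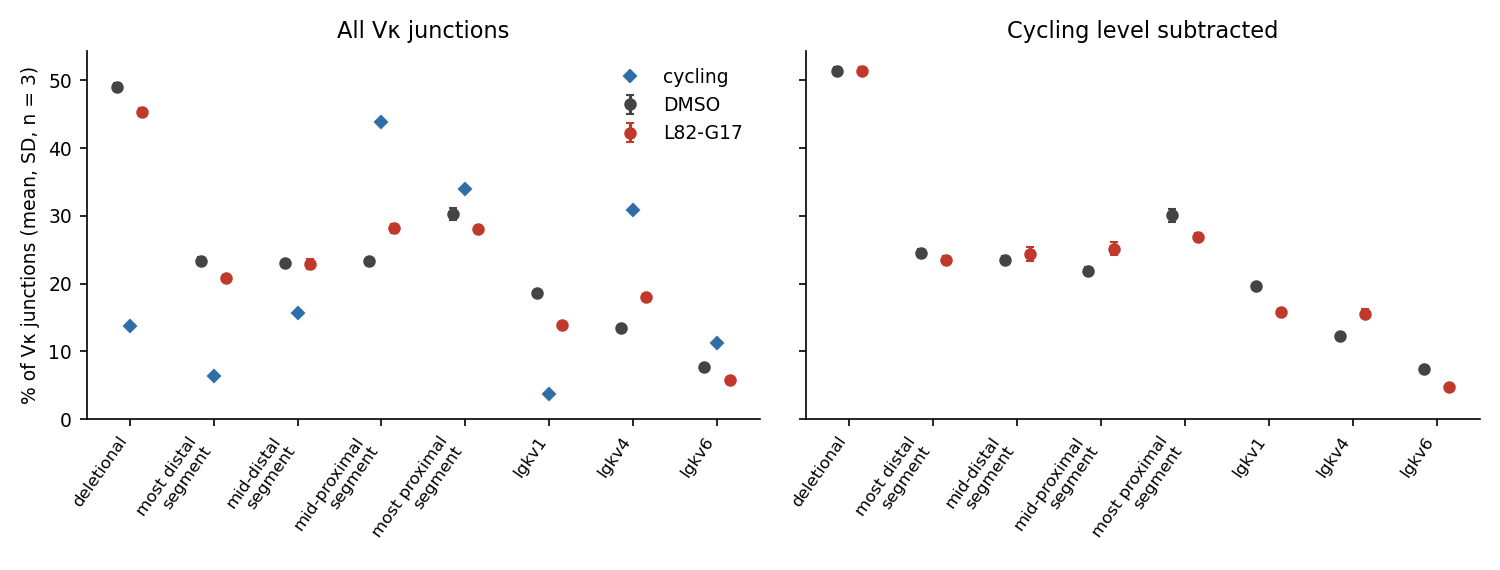
Share of Vκ junctions (percent, mean and SD of 3 libraries) at deletional sites, in 4 segments of the Vκ region and in 3 Igkv families, for all Vκ junctions (left) and after the mean of the cycling libraries was subtracted (right). Diamonds give the mean of the cycling libraries. The deletional share of 49.0% with DMSO and 45.3% with L82-G17 became 51.4% in both, whereas the mid-proximal segment and the Igkv families stayed apart.

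Near the bait, joints to the coding ends of Jκ4, Jκ5 and RS lay lower with L82-G17, and joints to the signal ends of the intronic RSS and Jκ4 lay higher. Junctions within 2 kb of the Jκ1 break numbered 4022, 4518 and 4558 per 500000 read pairs with DMSO and 2024, 2164 and 2140 with L82-G17, a log2 ratio of -1.05 without overlap (exact permutation p = 0.1). As a share of all junctions they lay higher with L82-G17, at 1.14% to 1.34% against 1.39% to 1.66%. The signals named next were picked after their values had been seen, and the values are given as a description.

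Joints to the coding ends of Jκ4, Jκ5 and RS were fewer. The signal sequences of Jκ1, Jκ4, Jκ5 and RS all have the 23-bp spacer, and how their ends came to be joined was not tested. RS is a recombining sequence downstream of Cκ whose joining inactivates the locus, and its signal sequence lies 29.2 kb past Jκ1.
RS, chr6:70701736-70701774, minus strand: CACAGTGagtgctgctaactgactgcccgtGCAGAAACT
The Jκ1 signal end met the coding end of Jκ5 in 1813, 1932 and 2337 junctions with DMSO and 749, 600 and 556 with L82-G17, that of Jκ4 in 1139, 1493 and 1357 against 358, 454 and 384, and that of RS in 2263, 2098 and 2564 against 744, 1001 and 697. The ratios of means were 0.313, 0.300 and 0.353, and no group overlapped. The same ratio was 0.397 for all junctions and 0.388 for Vκ junctions, and whether these joints fell by more than those was not tested. Cycling libraries held at most 62 of any of these 3 joints. The Jκ4 and Jκ5 counts include preys that opened with the heptamer instead of the coding end. For Jκ4 these numbered 9, 90 and 31 with DMSO, 61, 58 and 20 with L82-G17 and 33, 16 and 33 in cycling libraries. For Jκ5 they numbered 3, 0 and 2 with DMSO, 0, 1 and 0 with L82-G17 and 0, 0 and 21 in cycling libraries. Joints back to the coding end of Jκ1 itself were 889, 661 and 613 with DMSO and 610, 624 and 896 with L82-G17, with 428 to 621 in cycling libraries. The coding end of Jκ2 was joined in 40, 41 and 28 junctions against 20, 11 and 38, which overlap (exact permutation p = 0.2), and Jκ3 had 0 junctions in these 6 libraries.

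Joints to the signal ends of the intronic RSS and of Jκ4 were more numerous with L82-G17. The Jκ-Cκ intron holds an RSS, whose signal end is shown here with the same capitals. Its bases at the nonamer position match the consensus nonamer at 5 of 9, against 6 for RS and 9 for Jκ1.
Intronic RSS, chr6:70675008-70675035, plus strand: CACAGTGataggaacagagCCACTAATC
It met the Jκ1 signal end in 858, 883 and 923 junctions per 500000 read pairs with DMSO and in 2035, 1785 and 2297 with L82-G17 (ratio of means of 2.30), without overlap. The signal end of Jκ4 was joined in 57, 46 and 96 junctions with DMSO and 221, 340 and 199 with L82-G17 (ratio of means of 3.82), also without overlap. The cycling libraries had 2040, 3038 and 2133 intronic joints and 216, 454 and 259 with the Jκ4 signal end, so the L82-G17 and cycling libraries overlapped for both, and the L67 libraries had 1105 to 1377 and 124 to 285. The signal ends of Jκ2, Jκ5 and RS overlapped between the groups: that of Jκ2 was joined in 62, 244 and 17 junctions with DMSO and 0, 35 and 24 with L82-G17, that of Jκ5 in 0, 5 and 57 against 22, 83 and 5, and that of RS in 0, 0 and 19 against 0, 0 and 4.

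**Figure D5:**
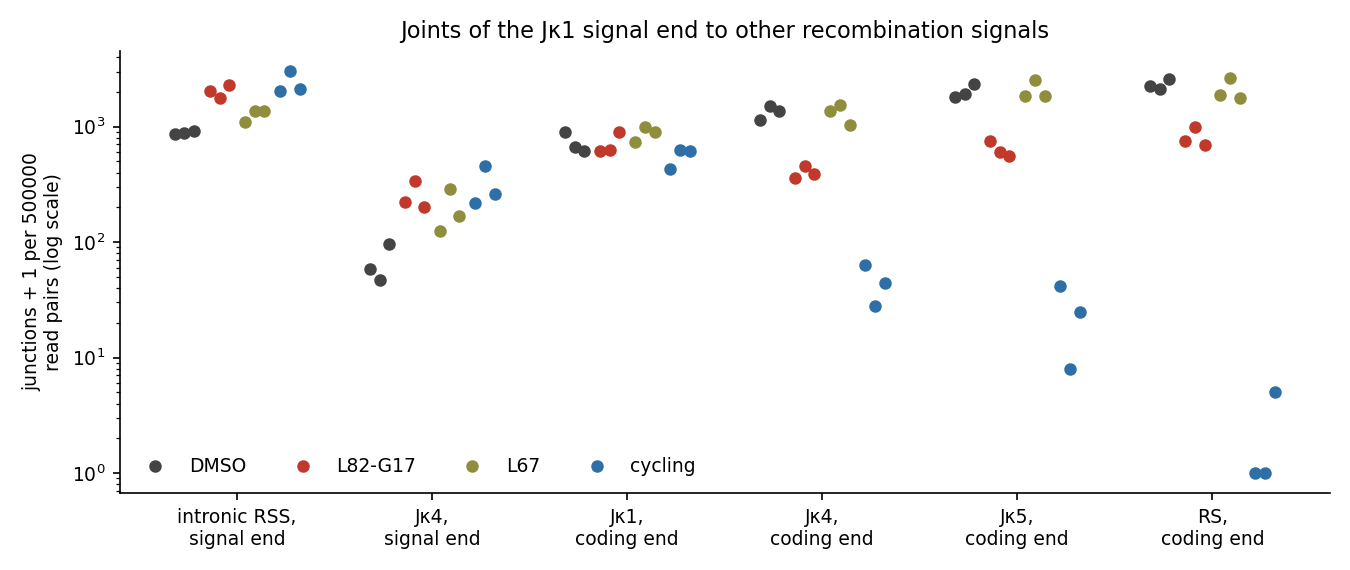
Joints of the Jκ1 signal end to other signals near the bait, as junctions plus 1 per 500000 read pairs on a log scale, with 1 point for each library. Counts for the Jκ4 and Jκ5 coding ends include preys that open with the heptamer. Joints to the intronic RSS and to the Jκ4 signal end lie higher with L82-G17 than with DMSO and near the cycling libraries; joints to the coding ends of Jκ4, Jκ5 and RS lie lower with L82-G17 and lower still in cycling libraries, at 62 or fewer; joints to the Jκ1 coding end overlap.

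Junctions to other chromosomes were rare in all libraries. There were 464, 300 and 207 per 500000 read pairs with DMSO and 252, 172 and 277 with L82-G17, which overlap (log2 ratio of -0.42, exact permutation p = 0.4), and 0 to 3 in the cycling libraries. As a share of all junctions they were 0.132%, 0.0884% and 0.0610% against 0.173%, 0.132% and 0.207%, higher with L82-G17 without overlap (exact permutation p = 0.1). The nearest libraries stood at 0.1316% with DMSO and 0.1318% with L82-G17, a margin far below the spread within either group. Single positions carried 12.6% to 39.6% of a library's translocations. Distinct translocation junctions went the other way, at 40 to 47 with DMSO and 24 to 33 with L82-G17. Windows around Igh, Igl, Tcra/Tcrd and Tcrg, antigen receptor loci on other chromosomes, held 65.5%, 35.7% and 17.9% of translocations with DMSO and 81.3%, 41.9% and 55.6% with L82-G17 (exact permutation p = 0.4). Tcra/Tcrd held 269, 52 and 27 junctions against 185, 52 and 68, and in DMSO replicate 2 Igh held more, with 55. Igh held 10 to 55 and 4 to 51, Igl 0 to 4 and 0 to 35, and Tcrg 0 in all 6 libraries. Tcrb lies on chromosome 6 and is outside this count, with 4 junctions in L82-G17 replicate 1 and 0 in the other 5 libraries.

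The change with L82-G17 was set beside that from the Jκ1 coding end (CE bait) of WT cells and from the SE bait of Ku70-/- cells, which lack an end binding factor of classical end joining. V-J Eff changed by a log2 ratio of -0.94 in WT CE libraries and -0.71 in Ku70-/- SE libraries, and neither differed detectably from the -1.37 above (exact permutation within strata, p = 0.585 and p = 0.405). That test shuffles treatment labels as if neither stratum had an effect, so large shifts in both widen its reference, and a missed threshold does not show that the changes were alike. As a share of Vκ junctions, hybrid joints went from 0.212% ± 0.0255 to 0.359% ± 0.0401 with the CE bait, opposite to the SE bait (difference of -0.689 percentage points, exact permutation p = 0.005, the smallest possible, adjusted p = 0.04 over 8 such tests). Per 500000 read pairs, CE hybrid joints numbered 855, 640 and 745 with DMSO and 597, 701 and 672 with L82-G17, which overlap, so the opposite direction holds for the share only. Microhomology over 1 bp went from 2.09% ± 0.00934 to 2.82% ± 0.197 with the CE bait (difference of -0.757 points, exact permutation p = 0.035, adjusted p = 0.0933). In Ku70-/- SE libraries joints within 10 bp of the break went from 53.2% ± 2.55 to 43.3% ± 1.63 (difference of 9.93 points, exact permutation p = 0.035, adjusted p = 0.0933). The WT share was 99.7% in both groups, so this difference is nearly the change in the Ku70-/- libraries alone. One Ku70-/- DMSO library had only 954 distinct Vκ junctions against 10693 and 13337 in the others, and without it, a choice made after seeing the data, that difference was 8.46 points (exact permutation p = 0.035). Hybrid joints in Ku70-/- SE libraries went from 47.7% ± 0.230 to 37.1% ± 0.953 (difference of 10.0 points, exact permutation p = 0.1, adjusted p = 0.2). The WT share began at 1.72% and could not fall by as many points, so this difference is set by the starting levels and compares no effect sizes. Microhomology over 1 bp went from 20.8% ± 1.23 to 22.6% ± 2.11 there (difference of -1.79 points, exact permutation p = 0.135, adjusted p = 0.216). With the CE bait, joints within 10 bp went from 98.0% ± 0.206 to 98.3% ± 0.694 (difference of -0.248 points, exact permutation p = 0.545, adjusted p = 0.585).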

How the data were processed

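The authors cut each library to 500000 read pairs, aligned them to mm9 with Bowtie2, and deposited 1 list of junctions per library, with duplicates kept and with rejoined bait reads added to the list. The columns used give prey position and strand, bait end, and read positions, from which overlap or gap was computed. Break sites were called from the 9 STI-571-treated WT SE libraries: positions with at least 30 junctions, none higher within 50 bp, opening with CAC (shift of 1 bp allowed). Prey strand told signal from coding ends. Exact two-sided permutation tests over libraries have 20 arrangements, and groups count as apart where they do not overlap. Usage was fitted with limma 3.58.1 (R 4.3.3) on log2 junctions per 1000 with 1 junction added, and Benjamini-Hochberg adjustment over 113 sites; the fit was tested on simulated data. Named sites are the 8 most used with DMSO, up to 8 largest called rises and falls, and the 3 nearest and farthest tested. Gene names come from GENCODE vM1, 2 of them updated through RefSeq synonyms. Members, lists and tests were chosen with earlier results of these data known. Alternatives covered windows, site sets, distinct junctions, sequencing runs and each library left out. No depth beyond 500000 read pairs is given by the lists, and no 2 replicates of a group held the same counts over sites (chi-square per degree of freedom of 16.5 to 53.5 between replicates, against read counting error only, since duplicates were kept).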

Additional observations from a re-analysis of the deposited data

Results flagged for a closer look

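The change in the hybrid joint share differed between the baits: it was -0.542 percentage points from the SE bait and 0.147 from the CE bait of WT cells, a difference of -0.689 (exact permutation p = 0.005). The contrast depends on the denominator, since per 500000 read pairs CE hybrid joints were 855, 640 and 745 with DMSO and 597, 701 and 672 with L82-G17. The change in microhomology over 1 bp also differed between the baits, by -0.757 percentage points (exact permutation p = 0.035), and did not pass after adjustment over 8 tests (adjusted p = 0.0933). Joints within 10 bp of the break changed by 0.0318 percentage points in WT and by -9.89 in Ku70-/- SE libraries. The difference of 9.93 (exact permutation p = 0.035) did not pass after adjustment over 8 tests (adjusted p = 0.0933). With the WT share at 99.7% in both groups, it is nearly the change in the Ku70-/- libraries alone.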

How the results depend on the processing

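V-J Eff, the Vκ share of junctions, the hybrid share, direct joints, 1-bp microhomology and the mid-proximal and most proximal segments kept their direction and stayed apart under every alternative run. The difference in exact joints (percentage points) was 0.720 over all Vκ junctions and 4.20 over distinct junctions, both without overlap, and -0.0500 with the cycling level subtracted, an alternative chosen after seeing the data; leaving out 1 library gave 0.0827 to 0.318. Joints within 5 bp differed by 0.250 and within 20 bp by -0.0365, and for the 10 bp window leaving out 1 library gave 0.00590 to 0.0763. Over distinct junctions the 10 bp share was 92.9% to 95.5% with DMSO and 95.3% to 96.6% with L82-G17, which overlap. Insertions overlapped over signal joints alone (-0.318), distinct junctions (-1.87) and the smaller sequencing run (-0.372). Microhomology over 1 bp turned to 0.00220 over signal joints and 0.00769 after subtraction, and leaving out 1 library gave -0.0750 to 0.00493. Over distinct junctions it took 8.01% to 12.1% with DMSO and 8.20% to 9.87% with L82-G17, which overlap. Jκ region junctions turned to a log2 ratio of 0.285 as a share of all junctions and overlapped over distinct junctions (-0.151). Translocations turned to 0.912 as a share, stood apart over distinct junctions (-0.601), and leaving out 1 library gave -0.70 to -0.12; their receptor share differed by 9.01 to 32.8 points, and stood apart only without DMSO replicate 1. The most distal segment turned to 0.198 over distinct junctions and overlapped after subtraction (-0.956), the mid-distal segment turned to 0.873 after subtraction and gave -0.453 to 0.303 with 1 library left out, and deletional sites overlapped over distinct junctions (-0.618) and after subtraction (-0.00927). Called sites numbered 24 with all 9 STI-571 libraries in 1 limma fit (13 higher, 11 lower), 28 with voom (12 and 16), 18 at a mean of at least 200 junctions (8 and 10), 0 after subtraction (32 at an unadjusted p under 0.05), and 0 to 1 with 1 library left out (27 to 43 unadjusted). Igkv8-16 turned to 0.0251 after subtraction and gave -0.0711 to 0.0471 with 1 library left out, and Igkv2-137 gave -2.44 to 1.07. For these reversals and lost calls the cause was not tested. Usage could not be fitted over distinct junctions, since 0 sites had a mean of 50. No paired analysis was possible because the labels carry no replicate numbers, and those used here give only the order in which the libraries are listed.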
